A study of Mus musculus with 12 samples.

Results

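The genes that encode the proteasome and the proteins that assemble, activate or inhibit it were followed in mouse pancreatic islets after partial loss of beta cells. Members were the genes of the deposited count table whose symbol starts with Psma, Psmb, Psmc, Psmd, Psme, Psmf or Psmg followed by a digit, without pseudogenes named "-ps", and with 10 or more counts in at least 3 libraries. Of 48709 genes in the table, 54 symbols matched, 4 were left out as pseudogenes and 0 for low counts, which left 50. All 50 also passed the filter on low counts of the test. The symbols divide by known role into 8 alpha subunits of the 20S core, 7 constitutive beta subunits, 3 inducible catalytic subunits, the thymus subunit Psmb11, 6 ATPases and 11 other subunits of the 19S particle, 7 assembly chaperones, 5 activator genes and the inhibitor Psmf1. The remaining symbol, Psmc3ip, names a partner protein in meiotic recombination and not a proteasome subunit, and is kept here only because the symbol rule takes it.

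RNA was sequenced from islets of female NSG mice heterozygous for RIP-DTR, a transgene in which the rat insulin promoter drives the diphtheria toxin receptor, so that the toxin acts on beta cells. The DT 1 DPA, DT 3 DPA and DT 5 DPA groups had received diphtheria toxin and were sampled 1, 3 and 5 days after ablation, as the abbreviation is read here, and the CTRL group had no treatment. Each of the 4 groups had 3 libraries, and all 4 carried the transgene on the NSG background, which lacks T, B and NK cells but keeps macrophages and dendritic cells of impaired function. The ages of the mice, and whether the libraries of a group came from separate animals, were not given in the sources used here. The p-values therefore cover only the spread among these samples, and that spread may be technical. Libraries held 29867083 to 50012558 counts. The members took 0.240 to 0.273% of them at 1 DPA, 0.243 to 0.266% at 3 DPA and 0.239 to 0.267% at 5 DPA, against 0.216 to 0.238% in CTRL.

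Transcripts of the insulin genes Ins1 and Ins2 made up 10.4 to 14.2% of counts at 1 DPA, 14.4 to 17.3% at 3 DPA and 14.7 to 19.7% at 5 DPA, against 16.0 to 18.7% in CTRL, so beta-cell RNA was abundant in every library. Markers of the acinar cells that surround islets varied widely within groups, with summed CPM, a count scaled to the library size, between 4539 and 70579 over the 12 libraries. CTRL replicate 3 stood apart from the other CTRL libraries in lower markers of macrophages, dendritic cells, stromal cells and acinar cells and in Cd4, as described beside the genes it touches. In bulk RNA, fewer cells of a type and less RNA per cell cannot be told apart.

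The proteasome is the main protease of the cytosol and nucleus. Its barrel-shaped 20S core is built of outer alpha rings, which gate the entrance, and inner beta rings, in which Psmb6, Psmb7 and Psmb5 carry the caspase-like, trypsin-like and chymotrypsin-like activities. A 19S regulatory particle at the end of the barrel recognises ubiquitinated proteins, removes the ubiquitin and unfolds the substrate with a ring of 6 ATPases. In immune cells and after interferon, Psmb9, Psmb10 and Psmb8 replace Psmb6, Psmb7 and Psmb5 in newly made cores, the immunoproteasome, which produces peptides suited to MHC class I. The transcription factor Nfe2l1 raises the constitutive genes together when proteasome activity falls short. Beta cells make large amounts of secretory protein, and their misfolded proinsulin is cleared in part by this route.

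Levels between genes are compared in the authors' TPM values, which correct for transcript length and library size. In CTRL islets the constitutive beta subunits had the highest median level of the roles, 64.6 TPM, from 32.4 TPM for Psmb7 to 149 TPM for Psmb1. The alpha subunits had a median of 48.4 TPM, from 0.201 TPM for the testis subunit Psma8 to 103 TPM for Psma2. The ATPases had a median of 49.6 TPM, from 28.8 TPM for Psmc2 to 99.9 TPM for Psmc5, and the other 19S subunits a median of 39.5 TPM, from 18.7 TPM for Psmd11 to 103 TPM for Psmd2. The assembly chaperones, which act before the finished particle and do not remain in it, lay lower, with a median of 14.3 TPM and a range of 7.21 TPM for Psmd9 to 29.5 TPM for Psmg2. The inducible catalytic subunits had 11.2 ± 4.92 TPM for Psmb9, 25.1 ± 10.02 TPM for Psmb8 and 32.5 ± 9.28 TPM for Psmb10 (SD, n = 3), and their spread between CTRL libraries was wide. Psmb11, the catalytic subunit of thymic epithelium, stood at 0.0270 TPM.

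**Figure D1:**
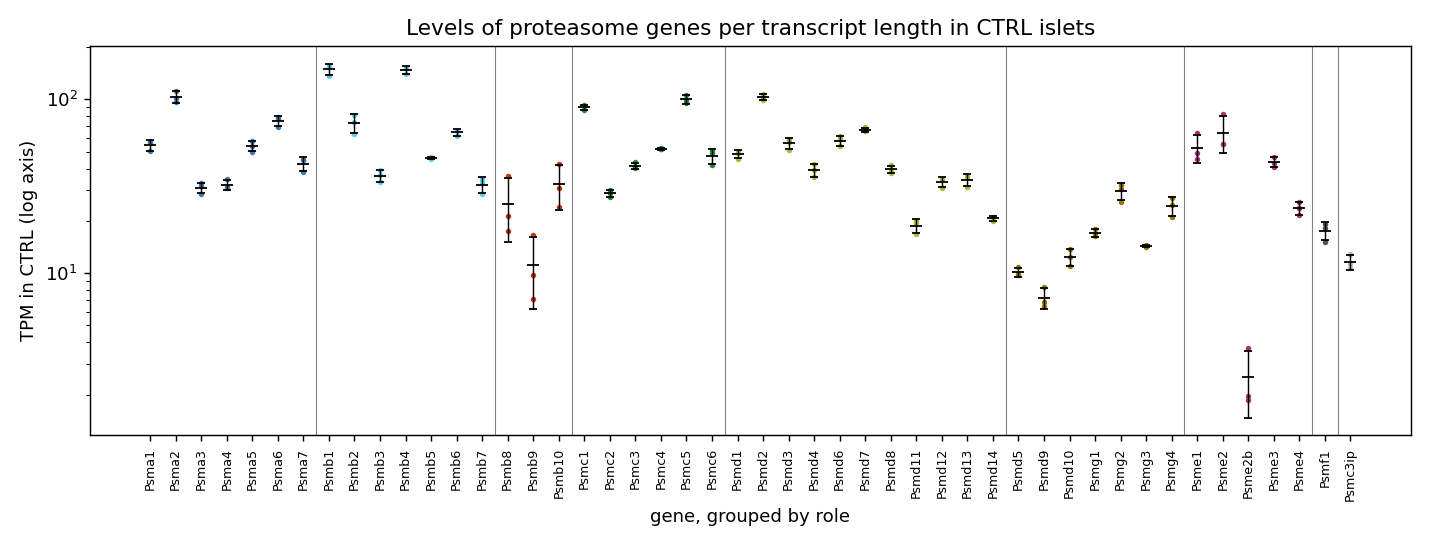
TPM of 48 proteasome genes in the 3 CTRL libraries, on a log axis, grouped by role and separated by vertical lines (points, libraries; bars, mean ± SD); Psma8 and Psmb11, at 0.201 and 0.0270 TPM, are not drawn. The chaperones lie below most subunits of the core and of the 19S particle, and Psmb8, Psmb9 and Psmb10 have wider bars than the constitutive beta subunits.

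At 1 DPA the proteasome genes did not move as 1 block. Of the 50 members, 20 were higher and 7 lower than in CTRL (edgeR's quasi-likelihood test, Benjamini-Hochberg adjusted p under 0.05 over 17294 genes). Over all genes tested, 29.2% were higher and 22.4% lower, 51.6% in all, so the 54.0% of members called is near the share of all genes. The members' median log2 fold change was 0.09, against -0.05 over all genes. Islets at 1 DPA held less insulin RNA, and the scaling matters here. Library sizes taken without the 50 most abundant genes were also used, in place of edgeR's TMM scaling. The median of all genes then moved by -0.13, the members' median became -0.04, and 14 members were called higher and 13 lower. Since TMM was dropped as well, the shift is not that of the 50 genes alone. Over all genes this scaling gave 4221 higher and 5498 lower. The distance between the members' median and that of all genes was 0.14 under either scaling. In the 19S ATPase ring 5 of 6 genes were called higher, and all 3 inducible catalytic subunits were called lower.

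**Figure D2:**
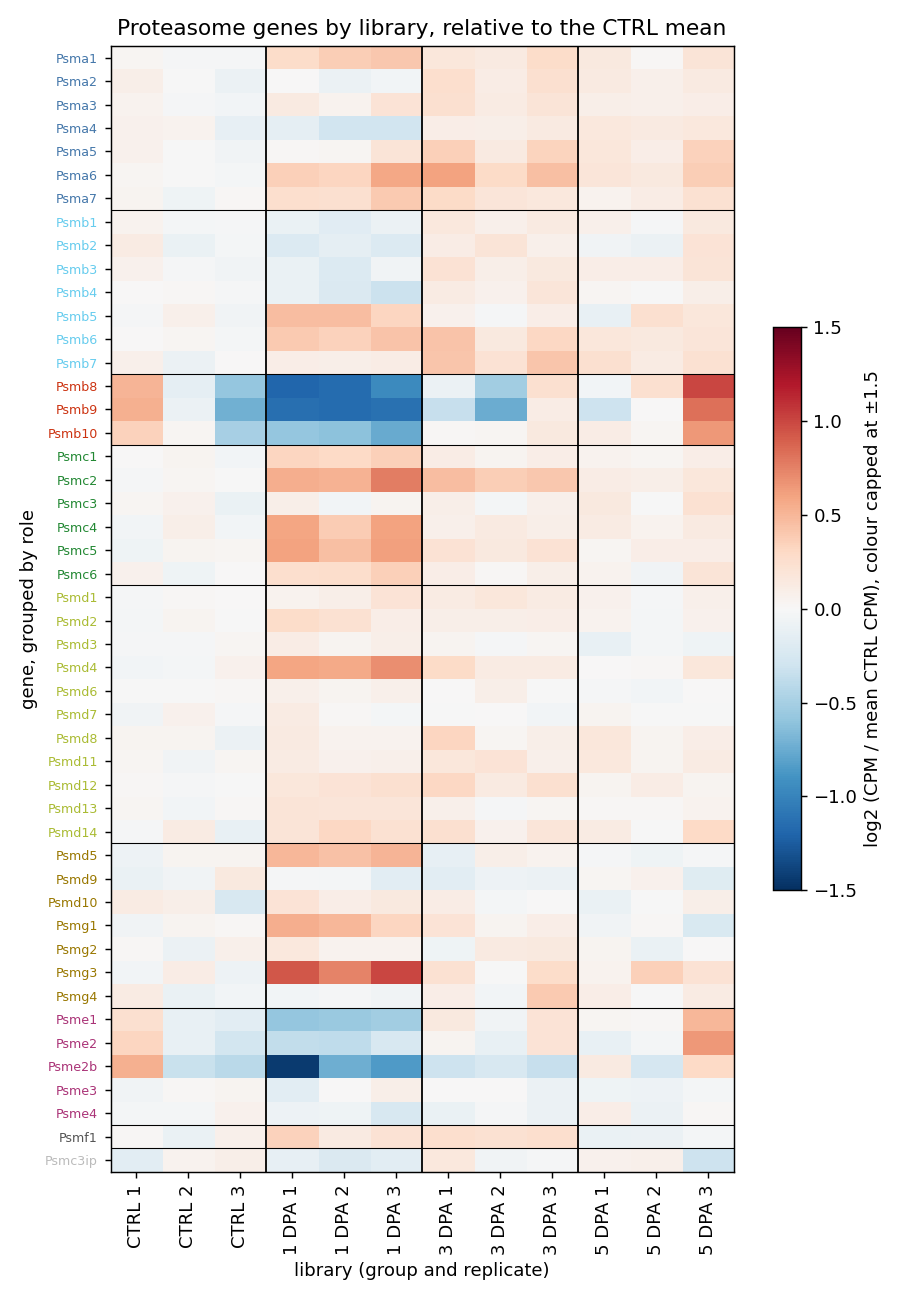
Colour map of log2 (CPM over the mean CTRL CPM) for 48 proteasome genes (rows, grouped by role, symbols coloured by role) in 12 libraries (columns, CTRL and then 1, 3 and 5 DPA), with colour capped at ±1.5 and Psma8 and Psmb11 not drawn. At 1 DPA, Psmb8, Psmb9, Psmb10, Psme1 and Psme2b are blue, and most ATPases, Psmd4, Psmd5, Psmg1 and Psmg3 are red; CTRL replicate 1 and 5 DPA replicate 3 are red, and CTRL replicate 3 blue, for the 3 inducible subunits.

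In the base of the 19S particle, 5 of the 6 ATPases were higher at 1 DPA, with a median log2 fold change of 0.43 over the 6. Psmc2 had 97.8, 96.1 and 114 CPM at 1 DPA, against 65.9, 68.0 and 66.9 CPM in CTRL. The groups did not overlap, and Psmc2 was 0.62 ± 0.07 higher (log2 fold change ± SE, edgeR adjusted p = 1.25e-05). Psmc5 had 98.1, 88.0 and 98.6 CPM at 1 DPA, against 61.4, 66.2 and 65.5 CPM in CTRL. Psmc4 had 78.3, 67.7 and 78.7 CPM at 1 DPA, against 50.5, 55.2 and 50.4 CPM in CTRL. Neither gene's groups overlapped, and their log2 fold changes were 0.56 for Psmc5 (edgeR adjusted p = 1.04e-05) and 0.53 for Psmc4 (edgeR adjusted p = 4.78e-05). Psmc1 rose by 0.33 and Psmc6 by 0.29, while Psmc3 stood at 51.2 ± 2.22 CPM at 1 DPA and 50.05 ± 3.03 CPM in CTRL (SD, n = 3 each), with overlapping libraries. The span of Psmc3 overlaps Slc39a13 on the opposite strand by 4579 bases. The call of Psmc6 ended without CTRL replicate 2 or 1 DPA replicate 3, and with the scaling without the 50 most abundant genes, which left 4 ATPases higher and a median of 0.30.

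Of the 11 other 19S subunits, 5 were higher at 1 DPA and the other 6 did not pass, with a median of 0.11. Psmd4, a ubiquitin receptor of the particle, changed most, with 76.3, 75.1 and 82.1 CPM at 1 DPA, against 49.5, 49.8 and 53.1 CPM in CTRL. The groups were far apart, and the log2 fold change was 0.62 ± 0.07 (edgeR adjusted p = 1.66e-05). Psmd14, the deubiquitinase of the lid, had 31.1, 33.7 and 31.6 CPM at 1 DPA, against 26.8, 29.5 and 25.0 CPM in CTRL, a log2 fold change of 0.25 (edgeR adjusted p = 0.0399). Although its groups did not overlap, that call ended without any 1 of 9 of the 12 libraries, at adjusted p up to 0.158. The scaffold Psmd2 (0.20), Psmd12 (0.21) and Psmd13 (0.19) also rose, by small amounts. Leaving out CTRL replicate 1 ended the calls of Psmd2 and Psmd12, and leaving out CTRL replicate 2 or 1 DPA replicate 3 those of Psmd12 and Psmd13. Psmd11, a lid subunit that stabilises the assembled particle, had 60.0, 57.8 and 58.4 CPM at 1 DPA, against 56.1, 53.3 and 56.1 CPM in CTRL, and its difference of 0.09 did not pass (edgeR adjusted p = 0.182). With library sizes without the 50 most abundant genes, the calls of Psmd2, Psmd12, Psmd13 and Psmd14 ended, only Psmd4 of these 11 was called, and their median turned to -0.01.

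**Figure D3:**
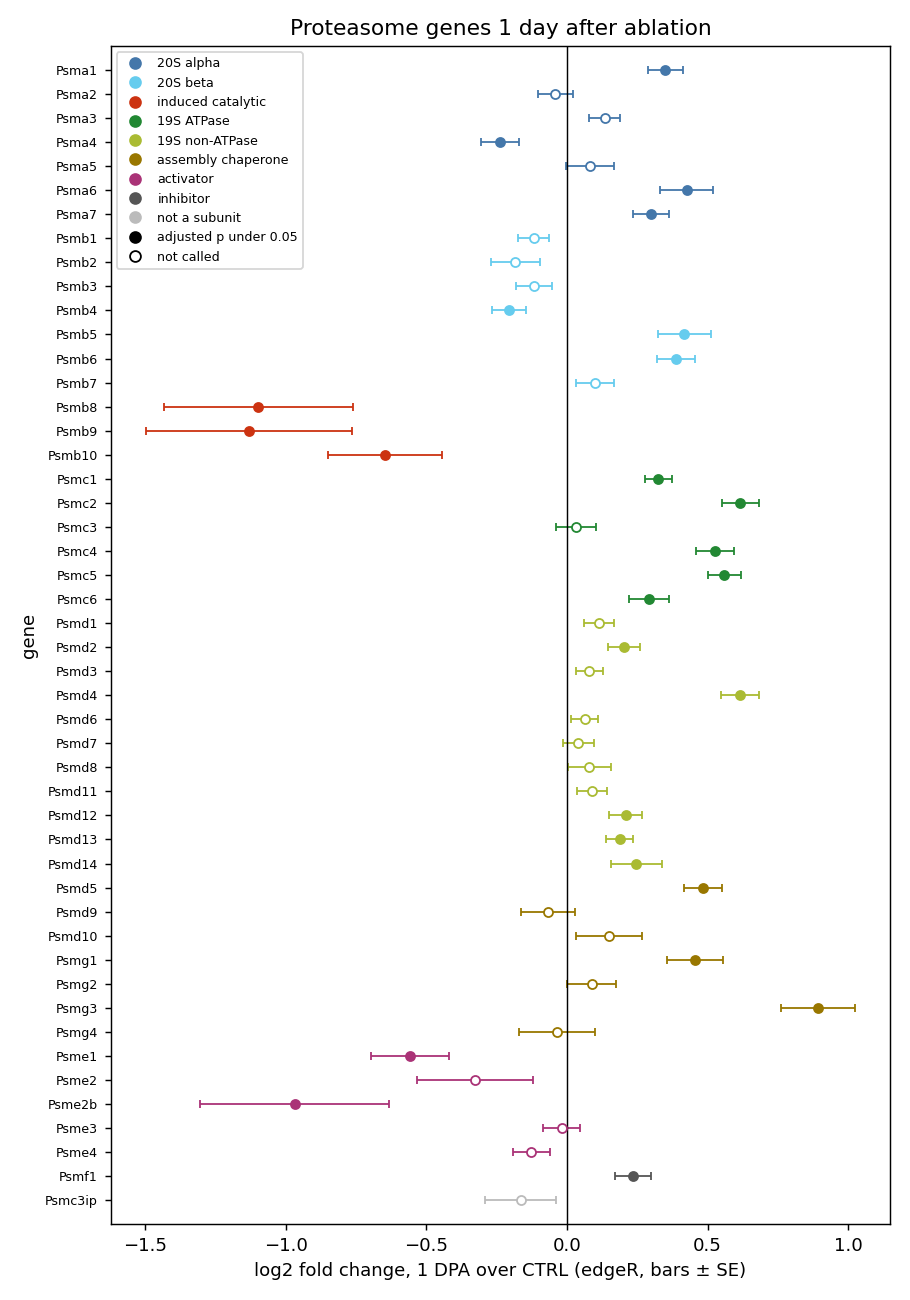
Log2 fold change of 1 DPA over CTRL for 48 proteasome genes (points with bars of ± SE from edgeR, coloured by role; filled, adjusted p under 0.05; open, not called); Psma8 and Psmb11 are not drawn. Psmc2, Psmc4, Psmc5, Psmd4 and Psmg3 lie at 0.53 to 0.89, most other subunits lie within 0.3 of 0, and Psmb8, Psmb9, Psmb10, Psme1 and Psme2b lie at -0.56 to -1.13.

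The subunits of the 20S core split. Of the 8 alpha genes, Psma6 (0.43), Psma1 (0.35) and Psma7 (0.30) rose and Psma4 fell by 0.24 on the log2 scale at 1 DPA. The median of the alpha genes was 0.11, which became -0.02 with library sizes without the 50 most abundant genes. Of the 7 constitutive beta genes, the catalytic Psmb5 and Psmb6 rose and Psmb4 fell by 0.21 on the log2 scale, with a median of -0.12. With library sizes without the 50 most abundant genes Psmb1, Psmb2 and Psmb3 were called lower too, which made 2 higher and 4 lower, with a median of -0.24. Psmb5 had 25.7, 25.6 and 23.2 CPM at 1 DPA, against 18.3, 19.6 and 17.9 CPM in CTRL. Psmb6 had 73.3, 71.1 and 75.0 CPM at 1 DPA, against 56.2, 56.9 and 54.6 CPM in CTRL. Every 1 DPA library exceeded every CTRL library for both, with log2 fold changes of 0.42 ± 0.09 for Psmb5 (edgeR adjusted p = 0.00286) and 0.39 ± 0.07 for Psmb6 (edgeR adjusted p = 0.000475). The third catalytic gene, Psmb7, had 54.7, 54.0 and 55.3 CPM at 1 DPA, against 53.9, 48.1 and 51.1 CPM in CTRL, and did not pass (log2 fold change 0.10, edgeR adjusted p = 0.232).

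The inducible counterparts of these 3 catalytic subunits went the other way. Psmb8 had 13.8, 14.3 and 16.3 CPM at 1 DPA, against 44.9, 28.9 and 21.2 CPM in CTRL. Psmb9 had 8.64, 8.50 and 8.72 CPM at 1 DPA, against 27.4, 17.8 and 11.5 CPM in CTRL. Psmb10 had 17.1, 16.8 and 15.2 CPM at 1 DPA, against 32.6, 26.2 and 18.2 CPM in CTRL. For each of them the 1 DPA libraries were close together and below all CTRL libraries, of which replicate 1 was highest and replicate 3 lowest. The log2 fold changes were -1.10 ± 0.34 for Psmb8 (edgeR adjusted p = 0.0206), -1.13 ± 0.37 for Psmb9 (edgeR adjusted p = 0.0256) and -0.65 ± 0.20 for Psmb10 (edgeR adjusted p = 0.0209). Without CTRL replicate 1 all 3 calls ended, at adjusted p of 0.0587 to 0.0868 over the libraries whose omission ended a call; these were also 1 DPA replicate 1 or 2 for Psmb8, any 1 DPA replicate for Psmb9 and 1 DPA replicate 3 for Psmb10, and limma-voom did not call Psmb9 or Psmb10.

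At 3 and 5 DPA most libraries lay within the range of CTRL for these 3 genes. Psmb8 had 29.7, 22.0 and 37.3 CPM at 3 DPA and 30.8, 37.3 and 63.7 CPM at 5 DPA. Psmb9 had 14.8, 11.3 and 20.4 CPM at 3 DPA and 15.2, 18.96 and 33.6 CPM at 5 DPA. Psmb10 had 25.9, 26.2 and 28.5 CPM at 3 DPA and 27.8, 26.3 and 40.4 CPM at 5 DPA. All of these libraries lay above the 1 DPA libraries, and 5 DPA replicate 3 was the highest of the 12 libraries for each gene. Against 1 DPA, Psmb8 was higher by 1.00 at 3 DPA (edgeR adjusted p = 0.0337) and by 1.57 at 5 DPA (edgeR adjusted p = 0.00312), and Psmb9 by 1.39 at 5 DPA (edgeR adjusted p = 0.00889). Psmb10 was higher by 0.71 at 3 DPA and 0.94 at 5 DPA, and the difference of 0.85 for Psmb9 at 3 DPA did not pass. Without 5 of the libraries in turn (each of 1 DPA, and replicates 1 and 3 of 3 DPA) the Psmb8 call at 3 DPA ended, while those at 5 DPA held in all 19 alternatives for Psmb8 and Psmb9. The Psmb10 call at 3 DPA ended without 1 DPA replicate 3.

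**Figure D4:**
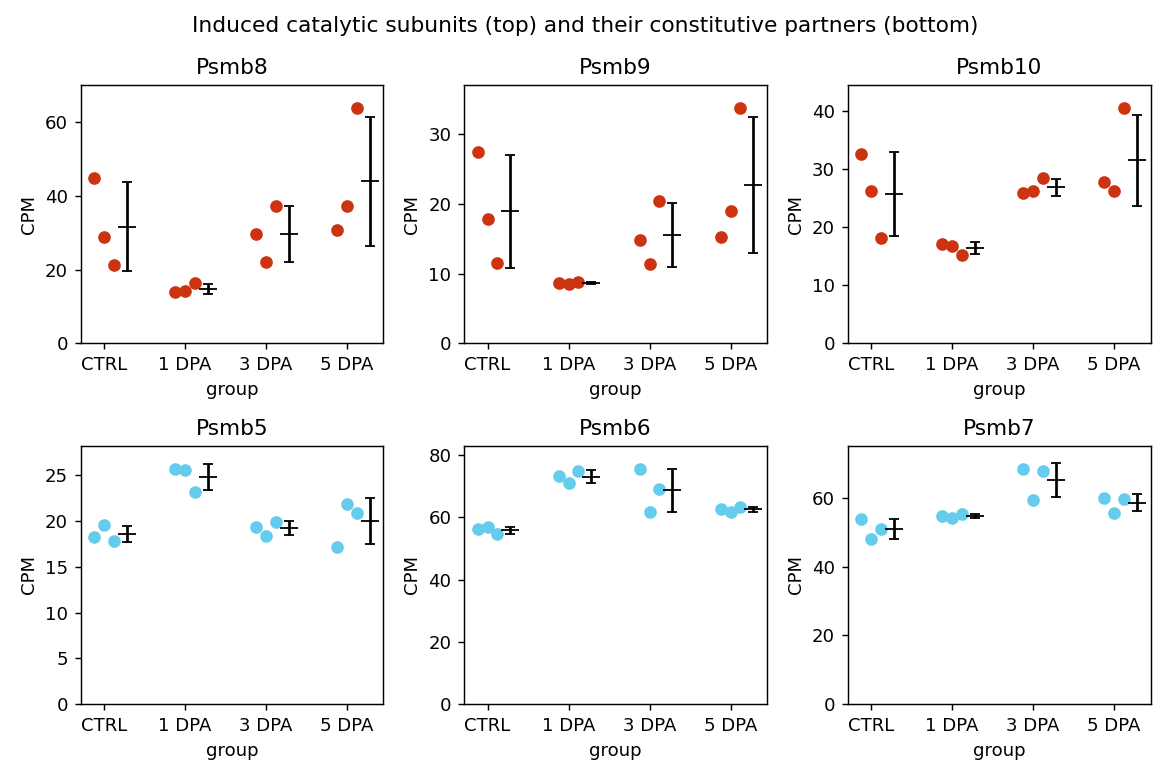
CPM of the inducible catalytic subunits (top row) and of the constitutive subunits they replace (bottom row) in each library of CTRL and 1, 3 and 5 DPA (points, libraries; bars, mean ± SD, n = 3; every axis starts at 0). At 1 DPA the 3 inducible genes are below CTRL, at 8.50 to 17.1 CPM, and Psmb5 and Psmb6 are above it; the 5 DPA library at 63.7 CPM of Psmb8 is also the highest for Psmb9 and Psmb10.

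Within a library, the level of an inducible subunit relative to its constitutive partner is free of scaling. The TPM of Psmb8 over that of Psmb5 was 0.172, 0.177 and 0.224 at 1 DPA, against 0.782, 0.468 and 0.378 in CTRL. That of Psmb9 over Psmb6 was 0.0604, 0.0612 and 0.0595 at 1 DPA, against 0.250, 0.160 and 0.107 in CTRL. That of Psmb10 over Psmb7 was 0.629, 0.624 and 0.551 at 1 DPA, against 1.21, 1.09 and 0.715 in CTRL. In every pair all 1 DPA libraries lay below all CTRL libraries, with CTRL replicate 3 nearest to them. At 5 DPA the ratios were 0.571, 0.542 and 0.969 for Psmb8 over Psmb5, 0.124, 0.157 and 0.271 for Psmb9 over Psmb6 and 0.929, 0.947 and 1.36 for Psmb10 over Psmb7, with replicate 3 highest each time. These ratios are given as a description, with no test, because the same counts gave the fold changes above.

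Markers of macrophages, a cell type that makes much of the immunoproteasome, moved with these genes. The summed level of 14 macrophage markers was 252, 226 and 300.4 CPM at 1 DPA, against 1130, 681 and 298 CPM in CTRL, and 11 of the 14 were lower at 1 DPA by the same edgeR test while the other 3 did not pass. It was 725, 474 and 842 CPM at 3 DPA and 1157, 1079 and 1774 CPM at 5 DPA. CTRL replicate 3 was as low as the 1 DPA libraries and 5 DPA replicate 3 was the highest, the same libraries that were lowest in CTRL and highest of all for Psmb8, Psmb9 and Psmb10. Of 5 dendritic cell markers, 4 were lower at 1 DPA, with summed levels of 6.17, 6.07 and 7.33 CPM at 1 DPA, against 83.7, 27.8 and 7.81 CPM in CTRL. In the lymphocyte list of 7, Cd3e, the T-cell receptor component, was at 0 in every library, and 5 others had 1.27 CPM or less. The rest was Cd4, which macrophages and dendritic cells can also express, at 0.578, 0.238 and 0.349 CPM at 1 DPA, against 26.9, 19.2 and 0.200 CPM in CTRL. Stromal markers had summed levels of 834, 878 and 966 CPM at 1 DPA and 5295, 3271 and 3353 CPM at 5 DPA, against 2428, 1870 and 791 CPM in CTRL, and 3 of 11 were lower at 1 DPA. Endothelial markers had 753, 745 and 697 CPM at 1 DPA, against 1066, 946 and 872 CPM in CTRL, and 5 of 8 were lower at 1 DPA. Over all genes 22.4% were lower at 1 DPA. The falls were not confined to these cells, since 8 of 10 beta markers were lower too. In the duct list 2 of 6 were lower, which is near the share of all genes. Of the acinar, alpha, and delta and PP markers 0 were called. The part of any of these cells in the levels of the inducible subunits was not tested.

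**Figure D5:**
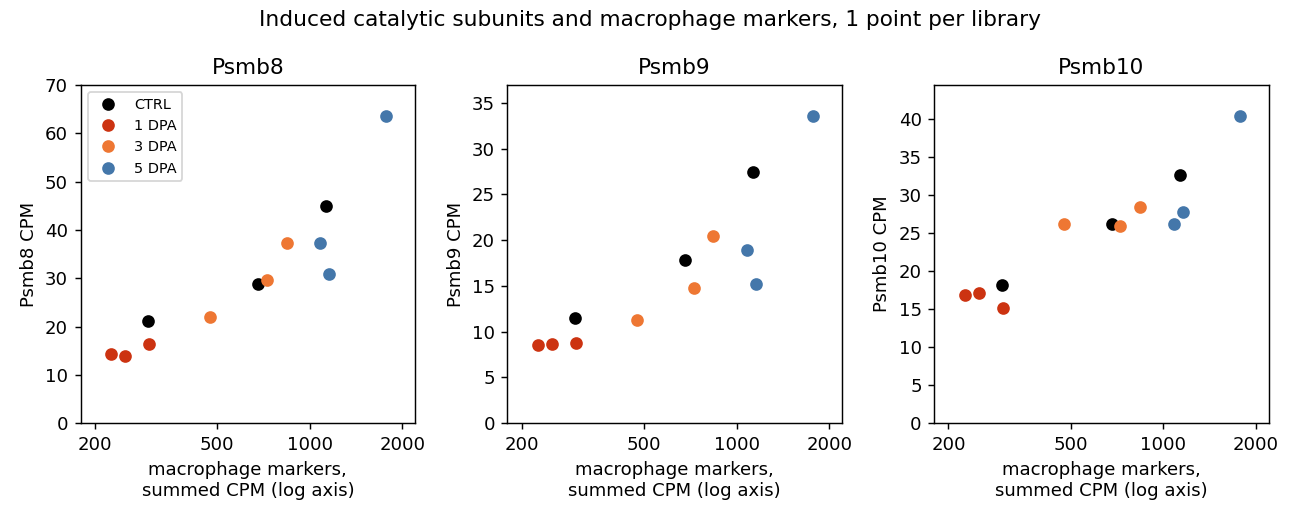
CPM of Psmb8, Psmb9 and Psmb10 against the summed CPM of 14 macrophage markers (log axis), 1 point per library, coloured by group. The 1 DPA libraries, at 226 to 300.4 CPM of markers, lie at the lower left beside CTRL replicate 3, and 5 DPA replicate 3, at 1774 CPM, lies at the upper right in each panel.

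The activators include Psme1 and Psme2, whose products form the interferon-inducible PA28 ring that opens the core without ATP. Psme1 had 35.7, 36.3 and 37.2 CPM at 1 DPA, against 63.4, 49.5 and 47.8 CPM in CTRL. Its 1 DPA libraries all lay below CTRL, and it fell by 0.56 ± 0.14 on the log2 scale (edgeR adjusted p = 0.00589). Psme2 had 40.8, 40.4 and 44.5 CPM at 1 DPA, against 65.6, 48.6 and 43.2 CPM in CTRL. These libraries overlapped, through CTRL replicate 3, and the difference of -0.32 did not pass (edgeR adjusted p = 0.207). Psme2b, a close copy of Psme2 with which it may share reads, had 13, 22 and 17 counts at 1 DPA, against 54, 32 and 33 counts in CTRL, and was 0.97 lower on the log2 scale (edgeR adjusted p = 0.0309). Leaving out CTRL replicate 1 or 1 DPA replicate 1, or using limma-voom, ended that call. The annotated span of Psme2b also overlaps Gm12185 by 837 bases and 9930111J21Rik1 by 41 bases, both on the same strand. Reads of these genes may not have been told apart. The macrophage values above moved with Psme1 and Psme2 too, and their part was not tested. Both genes were highest in CTRL replicate 1 and 5 DPA replicate 3 within their groups. The nuclear activator Psme3 (-0.02, edgeR adjusted p = 0.817) and Psme4, the PA200 activator (-0.13, edgeR adjusted p = 0.123), which are not interferon-inducible, did not pass.

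Among the 7 assembly chaperones 3 rose at 1 DPA, 42.9%, against 29.2% of all genes. Psmg3, which helps to build the alpha ring, had 11.2, 9.79 and 11.7 CPM at 1 DPA, against 5.69, 6.36 and 5.54 CPM in CTRL. Psmd5, which holds ATPases during assembly of the base, had 40.6, 39.0 and 40.9 CPM at 1 DPA, against 27.2, 29.5 and 29.4 CPM in CTRL. Neither gene's groups overlapped, and the log2 fold changes were 0.89 ± 0.13 for Psmg3 (edgeR adjusted p = 0.00014) and 0.48 ± 0.07 for Psmd5 (edgeR adjusted p = 0.000103). Psmg1, a partner of Psmg2 at the alpha ring, rose by 0.46, while Psmg2 (0.09), Psmg4 (-0.04), Psmd9 (-0.07) and Psmd10 (0.15) did not pass. The 3 calls were made in all 19 alternatives. The annotated span of Psmg3 overlaps Gm26938 on the same strand by 2816 bases, so their reads may not have been told apart. Over the 12 libraries Gm26938 had 73 counts and Psmg3 3707. The inhibitor Psmf1, known as PI31, had 66.02, 57.2 and 60.4 CPM at 1 DPA, against 52.7, 48.4 and 54.9 CPM in CTRL, a log2 fold change of 0.24 (edgeR adjusted p = 0.00958) that was lost when CTRL replicate 2 or 1 DPA replicate 3 was left out and with the scaling without the 50 most abundant genes.

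A pair of members was near the limit of detection. Psmb11 had 17, 10 and 23 counts at 1 DPA, against 0, 4 and 3 counts in CTRL, and it is 1 of the 20 members called higher. It reached the minimum of 10 counts only in the 1 DPA libraries and in 1 library at 3 DPA, so its choice as a member favoured a rise at 1 DPA, and its values are given as a description. It lies at chr14:54621433-54629556 (mm10, plus strand), 3411 bases from Psmb5 and 1675 bases from Cdh24 by the GENCODE annotation. Psma8, on the other hand, had 1, 2 and 2 counts at 1 DPA, against 10, 3 and 6 counts in CTRL, and its difference of -1.63 did not pass (edgeR adjusted p = 0.059). It reached 10 counts only in CTRL replicate 1, 3 DPA replicate 3 and 5 DPA replicates 2 and 3. Its choice as a member thus favoured low values at 1 DPA. At counts this low the fitted fold changes depend strongly on single reads. Psmc3ip, no proteasome gene, had 9.003, 8.44 and 8.75 CPM at 1 DPA, against 8.76, 10.2 and 10.4 CPM in CTRL, with overlapping groups (log2 fold change -0.16, edgeR adjusted p = 0.294).

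By 3 DPA fewer members differed from CTRL, in 1 direction. Of the 50, 7 were higher and 0 lower, against 10.2% higher and 2.37% lower over all genes, 12.6% in all, so the 14% of members called higher is not far above the share of all genes. In either direction, 18 members had an unadjusted p under 0.05, and DESeq2 and limma-voom called 11 and 9 higher and 0 lower. Psma6 had 65.0, 52.4 and 58.4 CPM at 3 DPA, against 43.8, 42.6 and 42.0 CPM in CTRL (log2 fold change 0.45, edgeR adjusted p = 0.00648). Psmc2 had 91.9, 86.3 and 88.5 CPM at 3 DPA, with the CTRL values given above (log2 fold change 0.41, edgeR adjusted p = 0.00129). For both genes every 3 DPA library was above every CTRL library. Psmb7, not called at 1 DPA, had 68.3, 59.5 and 67.9 CPM at 3 DPA, again clear of CTRL (log2 fold change 0.35, edgeR adjusted p = 0.00367). Its annotated span overlaps Nek6 on the opposite strand by 6571 bases, so reads of the pair may not have been told apart. Psmb6 (0.30), Psmf1 (0.24), Psmd12 (0.23) and Psma3 (0.19) completed the list. Without 3 DPA replicate 1 only Psmc2 was called. Without CTRL replicate 1 or 2 the count was 3, since the calls of Psmb6, Psmf1, Psmd12 and Psma3 ended, and the last 3 of these were lost without other single libraries too. The members' median was 0.12, against -0.01 over all genes.

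At 5 DPA no member passed in either direction by edgeR, DESeq2 or limma-voom, against 8.54% of all genes by edgeR, 5.87% higher and 2.67% lower. At an unadjusted p under 0.05 edgeR had 5, all higher: Psma4, Psma5, Psma6, Psmb6 and Psmb7, named after their values were seen. Of these, Psmb7 came nearest, with 60.1, 55.7 and 59.8 CPM at 5 DPA, against 53.9, 48.1 and 51.1 CPM in CTRL (log2 fold change 0.20, edgeR adjusted p = 0.0901). The members' median was 0.08, against 0.01 over all genes. Of the genes that had risen most at 1 DPA, Psmd4 had 51.0, 51.4 and 57.2 CPM at 5 DPA and Psmc4 had 56.8, 53.7 and 57.0 CPM, and both overlapped CTRL. Psmg3 had 6.10, 7.54 and 6.84 CPM at 5 DPA, which also overlapped. Psmc2 had 72.3, 71.1 and 75.4 CPM at 5 DPA, every library above every CTRL library, without passing the test.

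The times were also compared with each other. At 3 DPA, 11 members were higher and 11 lower than at 1 DPA, against 20.4% and 24.7% of all genes, 45.1% in all. At 5 DPA 12 were higher and 19 lower than at 1 DPA, against 26.3% and 29.8% of all genes, 56.1% in all. The 44.0% and 62.0% of members called are near these shares. With library sizes without the 50 most abundant genes these became 15 higher and 7 lower, and 18 higher and 9 lower. Over all 17294 genes the same scaling gave 4927 higher and 3316 lower at 3 DPA, and 6111 and 3933 at 5 DPA. The balance of directions thus rested on the scaling, for all genes as for the members. With TMM, Psma8 was among the members higher than at 1 DPA at both times and Psmb11 among those lower at 5 DPA. The count minimum of a member favoured these directions. At 5 DPA, 5 of 6 ATPases were lower than at 1 DPA, led by Psmc2 (-0.49), Psmc5 (-0.49) and Psmc4 (-0.42), and Psmd4 (-0.55), Psmd5 (-0.52) and Psmg3 (-0.67) were lower as well. With library sizes without the 50 most abundant genes the call of the ATPase Psmc6 ended and Psmc3 was called higher. At 3 DPA, 5 of 7 constitutive beta genes were higher than at 1 DPA, namely Psmb1, Psmb2, Psmb3, Psmb4 and Psmb7 by 0.24 to 0.33, while Psmb5 was lower by 0.37. At 5 DPA, 0 members were higher and 2 lower than at 3 DPA, against 0.705% and 2.46% of all genes, 3.16% in all, with 6 at an unadjusted p under 0.05 in either direction and 0 higher and 2 lower by DESeq2 and by limma-voom. The pair was Psmc2 (-0.29, edgeR adjusted p = 0.0404) and Psmf1 (-0.32, edgeR adjusted p = 0.0277), and with the replicate number as a block the count was 1. The Psmc2 call ended without any 3 or 5 DPA library, CTRL replicate 1 or 2 or 1 DPA replicate 1, and that of Psmf1 without any 3 or 5 DPA library. The Psmc2 call also ended with library sizes without the 50 most abundant genes. Across the 4 groups 31 members differed by edgeR's F-test, 62.0% of members against 57.4% of all genes.

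Psmf1 had 61.7, 61.1 and 61.8 CPM at 3 DPA and 48.6, 48.8 and 50.9 CPM at 5 DPA. The 3 and 5 DPA libraries did not overlap, and those at 5 DPA lay within the range of CTRL. Against 1 DPA, Psmf1 at 5 DPA was lower by 0.31 (edgeR adjusted p = 0.00174), a call lost with library sizes without the 50 most abundant genes.

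Genes that work with the proteasome were counted from a separate list of 42 genes with values, none of them members. At 1 DPA 15 were higher and 8 lower, 35.7% and 19.05%, near the shares of all genes given above. Akirin2, which carries proteasomes into the nucleus, rose most, with 74.2, 65.1 and 75.8 CPM at 1 DPA, against 24.0, 29.3 and 28.9 CPM in CTRL. Its groups were far apart (log2 fold change 1.39 ± 0.09, edgeR adjusted p = 3.22e-07), and it was the only gene of the list called at 5 DPA, with 36.0, 33.3 and 35.6 CPM. Leaving out CTRL replicate 1 or 5 DPA replicate 1 or 3 ended the call at 5 DPA. Rad23b, a shuttle that brings ubiquitinated proteins to the particle, rose by 0.87 at 1 DPA, the deubiquitinase Uchl5 by 0.63, its docking receptor Adrm1 by 0.43, the autophagy receptor Sqstm1 by 0.39 and the deubiquitinase Usp14 by 0.23. The Usp14 call was lost without CTRL replicate 1 or 1 DPA replicate 3 and with library sizes without the 50 most abundant genes. The polyubiquitin gene Ubb differed by -0.17 and did not pass (edgeR adjusted p = 0.0849), nor did Pomp, the maturation factor of the core (-0.15, edgeR adjusted p = 0.0742).

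Nfe2l1, the activator of constitutive proteasome genes, was lower at the RNA level. It had 257, 256 and 243 CPM at 1 DPA, against 346, 351 and 338 CPM in CTRL, a log2 fold change of -0.45 ± 0.06 (edgeR adjusted p = 3.56e-05). At 3 DPA it had 289, 299.7 and 309 CPM, still below CTRL (-0.20, edgeR adjusted p = 0.031), but the omission of any 3 DPA library ended that call. Its relative Nfe2l2 was at 49.5 ± 2.42 CPM at 1 DPA and 43.9 ± 2.04 CPM in CTRL (SD, n = 3 each), a difference of 0.17 that did not pass (edgeR adjusted p = 0.0579). Ddi2, the protease that activates Nfe2l1, was lower at 3 DPA by 0.28 (edgeR adjusted p = 0.0287), and without 3 DPA replicate 1 or CTRL replicate 3 that call ended. Of the list, 7 genes were higher and 2 lower at 3 DPA, 16.7% and 4.76%, against 10.2% and 2.37% of all genes. Among those higher were Akirin2 (0.67), Uchl5 (0.39, not called without 3 DPA replicate 1) and Usp14 (0.39). At 5 DPA 1 was higher and 0 lower, against 5.87% and 2.67% of all genes by edgeR. With DESeq2 the counts were 3 and 2, and with limma-voom 2 and 0.

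Antigen presentation genes, the usual companions of the immunoproteasome, are part of that list, with 1 of 10 higher and 4 lower at 1 DPA. Over all genes 29.2% were higher and 22.4% lower. Irf1 and Erap1 were named after their values were seen. Irf1 had the largest rise, with 80.8, 63.7 and 92.2 CPM at 1 DPA, against 68.9, 40.2 and 48.9 CPM in CTRL (log2 fold change 0.58). These libraries overlapped, and Irf1 did not pass across the 4 groups (edgeR F-test adjusted p = 0.133). Erap1 had 44.6, 40.3 and 42.7 CPM at 1 DPA, all below the 58.3, 57.4 and 57.6 CPM in CTRL. Nlrc5, the activator of MHC class I genes, had 2.29, 2.56 and 3.23 CPM at 1 DPA, against 18.8, 8.02 and 2.62 CPM in CTRL (log2 fold change -1.86, edgeR adjusted p = 0.0417). B2m, the light chain of class I, had 73.4, 67.8 and 88.7 CPM at 1 DPA, against 339, 219 and 74.2 CPM in CTRL (log2 fold change -1.46, edgeR adjusted p = 0.0423). For both, CTRL replicate 3 lay among the 1 DPA libraries, and the calls ended without CTRL replicate 1 or 2, without any 1 or 3 DPA library and with limma-voom, and that of B2m also without 5 DPA replicate 1. Tap1, the peptide transporter gene next to Psmb9, had 27.6, 23.5 and 25.3 CPM at 1 DPA, against 51.2, 29.7 and 21.3 CPM in CTRL; these overlapped and did not pass (-0.42, edgeR adjusted p = 0.325). Psmb9 and Tap1 run in opposite directions and overlap by 212 bases in the GENCODE annotation, and the use of strand in counting was not given in the sources used here.

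The promoters of 42 of the 50 members could be matched in RefSeq (GRCm38.p6), as windows of 250 bases before to 50 bases after a start. The core of the antioxidant response element, TGACNNNGC, to which Nfe2l1 and Nfe2l2 bind, was found in 6 of the 42 members, 14.3%, against 13.99% of 27025 genes. CCAAT, the box of factor NF-Y, was found in 15 members, 35.7% against 41.1%. GGAAGT, a core of the ETS family, was found in 20 members, 47.6% against 26.5%. These are matches of letters, given as a description with no test. Matches were counted on both strands, and those that overlapped another motif were kept. The 250 bases before the start of genes on either side of the 1 DPA result follow, each 5′ to 3′ on the coding strand of the gene, with the matched motif in capitals. Psmb5 (chr14:54617996-54618245, minus strand) and Psmb6 (chr11:70525107-70525356, plus strand) rose and hold TGACNNNGC.
Psmb5: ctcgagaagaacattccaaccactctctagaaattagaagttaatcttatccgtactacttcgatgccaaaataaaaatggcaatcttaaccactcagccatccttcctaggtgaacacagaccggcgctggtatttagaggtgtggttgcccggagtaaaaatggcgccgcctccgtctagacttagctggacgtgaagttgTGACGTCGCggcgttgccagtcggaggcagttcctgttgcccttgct
Psmb6: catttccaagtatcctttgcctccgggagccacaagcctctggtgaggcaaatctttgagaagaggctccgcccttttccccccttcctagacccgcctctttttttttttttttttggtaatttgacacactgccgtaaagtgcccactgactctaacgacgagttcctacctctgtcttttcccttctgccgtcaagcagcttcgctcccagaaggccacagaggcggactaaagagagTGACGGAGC
Psmb9 (chr17:34187331-34187580, minus strand) fell, and the capitals mark a CCAAT box read on the other strand. The window also holds the start of Tap1.
Psmb9: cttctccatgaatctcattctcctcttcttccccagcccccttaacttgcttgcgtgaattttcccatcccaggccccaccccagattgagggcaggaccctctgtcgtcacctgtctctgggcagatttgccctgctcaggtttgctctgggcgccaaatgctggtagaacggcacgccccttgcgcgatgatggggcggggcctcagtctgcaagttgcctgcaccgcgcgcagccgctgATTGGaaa
The ATPase genes Psmc1 (chr12:100109952-100110201, plus strand) and Psmc2 (chr5:21785025-21785274, plus strand, the upstream of its 2 listed starts) rose, and the capitals mark 3 and 2 ETS cores on either strand.
Psmc1: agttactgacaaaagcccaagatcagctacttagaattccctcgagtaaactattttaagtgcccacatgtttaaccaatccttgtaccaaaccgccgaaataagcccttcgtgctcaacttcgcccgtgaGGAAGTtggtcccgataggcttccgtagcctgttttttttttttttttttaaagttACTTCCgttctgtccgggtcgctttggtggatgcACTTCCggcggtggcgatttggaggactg
Psmc2: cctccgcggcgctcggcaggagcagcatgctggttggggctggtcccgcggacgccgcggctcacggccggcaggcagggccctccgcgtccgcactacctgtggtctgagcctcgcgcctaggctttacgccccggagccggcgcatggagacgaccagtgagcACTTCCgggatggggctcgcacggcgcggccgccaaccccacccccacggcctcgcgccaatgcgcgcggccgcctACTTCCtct
In the whole window the ETS core was held by members of every outcome at 1 DPA. Those that rose were Psmc1, Psmc2, Psmc4, Psmc5, Psma1, Psma6, Psmd12, Psmd13, Psmd14 and Psmg3. Psmb4 and Psma4, which hold it too, fell. The holders Psma2, Psmd6, Psmd8, Psmd9, Psmd10, Psme2, Psme3 and Psme4 were not called. Of the other members with TGACNNNGC, Psmc6 and Psmd12 rose, and Psmd9 and Psme4 did not pass.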

How the data were processed

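The table deposited by the authors holds, per the file headers, raw counts per gene in whole numbers and TPM values of the same 12 libraries; 24 other columns of per-sample values were not used. Per the labels' protocols, RNeasy Mini columns and a stranded QIAseq mRNA kit were used. The submitters' processing notes name the mm10 build. The aligner, the counter and its use of strand were not given in the sources used here.

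From the counts, 17294 genes passed edgeR's filterByExpr (minimum count 10), were scaled by TMM and fitted by robust quasi-likelihood over all 12 libraries with 1 mean per group. A gene was called where its p, adjusted by Benjamini-Hochberg over all genes tested, was under 0.05. Fold changes are log2 values, standard errors come from the F statistic, and CPM uses TMM library sizes. The deposited TPM served only to compare genes within libraries. The tools were edgeR 4.0.16, DESeq2 1.42.0 and limma 3.58.1 in R 4.3.3. Coordinates are from GENCODE M21, where all 50 members matched, and promoters are from RefSeq. The fit was tested on simulated data.

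Members, lists, tests and other settings were chosen with earlier results of these data known. Named members were the 3 largest called changes each way per comparison, the catalytic pairs, Psme1 to Psme4, Psmf1, Psmd4, Psmd11, Psmd14, Psmc4 and Psmc3ip; of the related genes, 13 were always named, with the 2 largest called changes each way against CTRL. Other members are given by role, with values where they were called. One related gene that the rule names and one promoter motif are not reported here. Replicates of no group differed by as little as sampling noise. The main fit used no pairing of libraries by replicate number. Deviations from the group means correlated by 0.156, 0.187 and 0.326 between 3 and 5 DPA libraries of the same number. For other groups these correlations were not above 0.1 in all 3 pairs. Libraries of different numbers were not compared, so these values cannot show whether the numbers pair the samples. Alternatives were limma-voom and DESeq2, library sizes without the 50 most abundant genes in place of TMM, and RLE scaling. Others were a fit with no filter, a fit of only the groups compared, a replicate block and leaving out each library in turn.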

Additional observations from a re-analysis of the deposited data

Results flagged for a closer look

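With 3 libraries a group, no group was tested for a library far from the others. For 17 of the named members the change from CTRL differed between 2 times, which is the comparison of those times, by edgeR's test of that difference (adjusted p under 0.05). All values are log2 fold changes of the later over the earlier time.

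Genes of the immunoproteasome and its activator were higher later than at 1 DPA. At 3 DPA against 1 DPA the differences were 1.00 for Psmb8, 0.71 for Psmb10 and 0.66 for Psme1. At 5 DPA against 1 DPA they were 1.57 for Psmb8, 1.39 for Psmb9, 0.94 for Psmb10, 0.75 for Psme1, 0.53 for Psme2 and 1.04 for Psme2b. That of Psme2 was lost without any 1 of 8 libraries, CTRL replicate 2 and 5 DPA replicate 3 among them, and that of Psme2b without 1 DPA replicate 1 or 5 DPA replicate 1 or 3.

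Constitutive genes and chaperones that were high at 1 DPA were lower later. At 3 DPA against 1 DPA the differences were -0.37 for Psmb5, -0.21 for Psmc2, -0.42 for Psmc4, -0.44 for Psmd4, -0.48 for Psmd5 and -0.72 for Psmg3. At 5 DPA against 1 DPA they were -0.31 for Psmb5, -0.22 for Psmb6, -0.49 for Psmc2, -0.42 for Psmc4, -0.55 for Psmd4, -0.52 for Psmd5, -0.31 for Psmf1 and -0.67 for Psmg3. Of the calls at 5 DPA, that of Psmb5 ended without 5 DPA replicate 1 and that of Psmb6 without CTRL replicate 1 or 2 or 1 DPA replicate 3. Those of Psmb5, Psmb6 and Psmf1 at 5 DPA also ended with library sizes taken without the most abundant genes. The Psmc2 call at 3 DPA ended without 1 DPA replicate 3 or 3 DPA replicate 2 or 3, and with the same change of library sizes. Psmb7 was higher at 3 DPA than at 1 DPA, by 0.26. At 5 DPA against 3 DPA Psmc2 differed by -0.29 and Psmf1 by -0.32, with the limits given above.

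The pair of genes near the detection limit was also among these. Psma8, with 1 to 12 counts a library, was higher than at 1 DPA by 1.86 at 3 DPA and by 2.14 at 5 DPA, and Psmb11 was lower at 5 DPA than at 1 DPA by 2.13 (-2.13). The Psma8 call at 3 DPA ended without any 1 DPA library, 3 DPA replicate 1 or 3 or 5 DPA replicate 2, and at 5 DPA without 1 DPA replicate 1. Psma8 had reached the count minimum of a member only in CTRL replicate 1, 3 DPA replicate 3 and 5 DPA replicates 2 and 3. That choice favoured both of its differences, which are given as a description. Psmb11 had reached the count minimum of a member only through the 1 DPA libraries and 1 library at 3 DPA, which favoured this difference. That call ended without any 5 DPA library or 1 DPA replicate 3.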

How the results depend on the processing

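Counts of called genes are given as reported and then with the values that differed from that by more than 1.5 times, with the range over leaving out each of the 12 libraries. Members lower at 1 DPA than in CTRL numbered 7, against 4 with limma-voom, 13 with library sizes without the 50 most abundant genes and 3 to 11 without a library (3 without CTRL replicate 1, 4 without 1 DPA replicate 1 and 11 without CTRL replicate 2). Members higher at 3 DPA than in CTRL numbered 7, against 11 with DESeq2, 4 without the filter, 3 with only the groups compared and 1 to 8 without a library. Members lower at 3 DPA than at 1 DPA numbered 11, against 7 without the 50 genes and 7 to 12 without a library (7 without 3 DPA replicate 2). Members lower at 5 DPA than at 1 DPA numbered 19, against 9 without the 50 genes, 12 without the filter and 11 to 18 without a library (11 without 1 DPA replicate 3). Members lower at 5 DPA than at 3 DPA numbered 2, against 1 with RLE scaling, 1 without the 50 genes, 0 without the filter, 1 with the replicate block and 0 to 2 without a library. Members higher at 5 DPA than at 1 DPA numbered 12, and 8 to 14 without a library (8 without 1 DPA replicate 1 or 5 DPA replicate 3). Among the 42 related genes, those lower at 1 DPA numbered 8, against 5 with limma-voom, 17 without the 50 genes and 5 to 12 without a library. Those lower at 3 DPA numbered 2, against 4 with DESeq2, 1 with the block, 0 with only the groups compared and 0 to 4 without a library. Those higher at 5 DPA numbered 1, against 3 with DESeq2, 2 with limma-voom, 2 without the 50 genes, 2 with the block, 0 with only the groups compared and 0 to 2 without a library. Those lower at 5 DPA numbered 0, against 2 with DESeq2, 1 with the block and 0 to 2 without a library. For single genes, 2 called values turned sign, at 5 DPA against 1 DPA without the 50 genes: Psmd12 (0.0069, adjusted p = 0.929) and Psmd3 (0.0032, adjusted p = 0.960), against -0.15 each with TMM. Values under other settings were compared for all 50 members and the 15 named related genes, whether called or not. Of these values, 6949 stayed called in the same direction or stayed uncalled, so this number does not measure how stable the calls were. A further 344 were no longer past the threshold and 106 newly passed it. The causes were not tested, beyond the smaller number of libraries or genes that an alternative uses. The depth limits Psma8, Psmb11 and Psme2b, and 3 libraries a group limit the precision of small changes.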
